A study of Rattus norvegicus with 24 samples.

Results

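The mitochondrial respiratory chain and ATP synthase are 5 protein complexes of the inner mitochondrial membrane, and most of their subunits are encoded in the nucleus. The 83 genes described here are those of the 32883 genes in the count table whose symbols follow the naming of nuclear-encoded subunits: the Nduf genes of complex I, Sdha to Sdhd of complex II, Uqcr genes and Cyc1 of complex III, Cox4 to Cox8 genes of complex IV and the Atp5 genes of complex V. The match is by symbol and also takes in Atp5if1, an inhibitor of the ATP synthase. By symbol, 35 were assigned to complex I, 4 to complex II, 9 to complex III, 18 to complex IV and 17 to complex V. Where a symbol stood on more than one row, as for Cox6b1, Ndufv3 and Uqcrb, the row with the highest mean was taken. Of the 83 genes, 80 passed the filter of a mean normalized count of at least 2. The other 3 were complex IV isoforms: Cox7a1 had at most 2 reads in any sample, and Cox7b2 and Cox8c were at 0 in all 24 samples.

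RNA was measured by 3′ end sequencing in the urethra of female virgin Sprague–Dawley rats aged 12 weeks. All animals had simulated vaginal delivery (SVD), a crush of the pudendal nerves followed by distension of the vagina, and received an injection into the aorta 1 hour later. The injection held saline, allogeneic mesoangioblasts (MABsallo), which are vessel-associated stem cells grown here from rat hind-limb skeletal muscle, or the same cells overexpressing VEGF (MABsallo-VEGF). The host animals were wild type in the labels of the saline and MABsallo groups, and the MABsallo-VEGF groups carried the label VEGF OE, which refers to the injected cells. Per the study's methods, cells were transduced with a lentivirus carrying eGFP and firefly luciferase and sorted for GFP. Whether all cells given to the sequenced animals carried these is not stated. The VEGF vector used the SFFV promoter and also encoded a truncated CD34. The urethra was taken at 3d or 7d with 4 samples in each of the 6 groups. No urethra without SVD is analysed here, so the values describe the time after injury and the injected cells, not the injury against an intact urethra. At 7d, 2 of the 4 MABsallo-VEGF samples were labelled as recovered, and they are compared with the other 2 further on.

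Electrons enter the chain at complex I from NADH and at complex II from succinate, pass through complex III and cytochrome c, and reach oxygen at complex IV. Complexes I, III and IV pump protons, and complex V uses the resulting gradient to make ATP. Complexes I, III, IV and V also hold subunits encoded in the mitochondrial genome, so their assembly draws on both genomes, whereas complex II is wholly nuclear-encoded. The urethral wall holds striated fibres of the external sphincter, smooth muscle and an epithelium, and muscle fibres are known for high respiratory capacity and for muscle isoforms of some complex IV subunits.

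The data table held counts of reads per gene divided by a sample's size factor, called normalized counts below. Library totals ran from 2170695 to 10166052 reads. A single read stood for 1.67 to 9.23 normalized counts, depending on the library. Most 3d libraries were shallower than the 7d libraries, with 4851797 to 5249467 reads in saline, 2170695 to 4491900 in MABsallo and 3042531 to 4261098 in MABsallo-VEGF at 3d, against at least 5244129 in every 7d library. Saline 3d replicate 6 and MABsallo-VEGF 3d replicate 4 were taken as standing apart from the rest of their groups, and results that rest on them are given again for the other 22 samples. By chi-square per degree of freedom between replicates, saline 3d replicate 8 was at 86.7 and 91.4 from replicates 9 and 10. Saline 3d replicate 6 was at 70.9 and 61.3 from them, so it was not the farther of the 2. Fits without saline 3d replicate 8 are given with the single replicates left out. All 15 striated fibre genes and all 8 smooth muscle genes of the marker lists had counts in every one of the 24 samples, while Krt14 and Krt13 of the epithelial list were at 0 in 3 and 2 samples. The labels do not say which samples share a preparation, and p-values below measure the spread between the samples as labelled.

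Promoter windows of 300 bases, from 250 bases before to 50 bases after the transcription start, were matched in RefSeq (assembly GRCr8) for 73 of the 83 genes. The genes not matched included Atp5pd, Cox4i2, Cox6a1, Cox6c, Cyc1, Ndufa8, Ndufb9, Uqcr11 and Uqcrb. These windows were searched on both strands for 3 motifs of factors known to act on nuclear genes of oxidative phosphorylation: CGCATGCG for NRF-1, which reads the same on both strands, CCGGAAGT for the ETS family, to which GABP belongs, and CAAGATGG for YY1. The NRF-1 letters were in 7 of the 73 windows (9.59%, against 1.66% of all 33469 windows), the ETS letters in 8 (10.96%, against 3.81%) and the YY1 letters in 9 (12.3%, against 2.37%). At least 1 of the motifs was in 22 windows. The genes with the NRF-1 letters were Atp5mc2, Atp5me, Atp5mg, Atp5pf, Atp5po, Ndufa11 and Uqcrc1, of which 5 encode ATP synthase subunits. The ETS letters were in the windows of Atp5f1a, Cox5b, Cox8a, Ndufa13, Ndufb7, Ndufs1, Uqcrh and Uqcrq, and the YY1 letters in those of Atp5me, Atp5mf, Cox8a, Ndufa3, Ndufa6, Ndufs6, Ndufs7, Sdhc and Uqcrc2.

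Atp5pf, Cox8a and Cox8b show the range among the members, and each window below is printed 5′ to 3′ on the minus strand of GRCr8 with motif letters in capitals. The window of Atp5pf, a subunit of the ATP synthase stalk, lies at chr11:37375052-37375351 and holds the NRF-1 letters from base -169. That of Cox8a, the widely expressed form of complex IV subunit 8, lies at chr1:213833574-213833873 and holds the ETS letters from bases -58 and -20 and the YY1 letters from base -3, without overlap, all as their reverse complements. That of Cox8b, the muscle form of the same subunit, lies at chr1:205408224-205408523 and holds none of the 3. A match is a string of letters and not a measured binding site.
Atp5pf: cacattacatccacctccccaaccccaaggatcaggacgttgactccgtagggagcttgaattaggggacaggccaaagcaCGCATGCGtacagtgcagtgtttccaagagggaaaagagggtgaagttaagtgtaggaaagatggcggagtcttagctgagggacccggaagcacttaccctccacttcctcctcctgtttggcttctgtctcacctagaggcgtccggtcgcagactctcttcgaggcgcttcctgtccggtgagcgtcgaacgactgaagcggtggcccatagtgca
Cox8a: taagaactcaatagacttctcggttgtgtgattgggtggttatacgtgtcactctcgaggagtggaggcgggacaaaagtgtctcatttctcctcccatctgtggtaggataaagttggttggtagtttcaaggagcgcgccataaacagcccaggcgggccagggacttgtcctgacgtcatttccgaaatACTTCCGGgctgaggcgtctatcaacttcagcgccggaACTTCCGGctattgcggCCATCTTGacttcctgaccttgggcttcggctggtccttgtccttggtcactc
Cox8b: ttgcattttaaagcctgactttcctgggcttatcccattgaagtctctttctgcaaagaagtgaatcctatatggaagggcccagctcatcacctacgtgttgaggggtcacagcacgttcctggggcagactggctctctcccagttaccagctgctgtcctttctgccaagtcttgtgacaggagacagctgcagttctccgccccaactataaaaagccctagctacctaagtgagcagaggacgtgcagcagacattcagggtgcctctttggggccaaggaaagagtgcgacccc

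The 83 genes together took a smaller share of all counts at 3d than at 7d. The share was 1.69 ± 0.154% (SD, n = 4) in saline, 1.32 ± 0.393% in MABsallo and 1.36 ± 0.357% in MABsallo-VEGF at 3d, and 2.30 ± 0.236%, 2.25 ± 0.148% and 2.04 ± 0.275% at 7d. The 3d and 7d samples did not overlap in saline (1.54 to 1.90% against 1.98 to 2.55%) or in MABsallo (0.801 to 1.66% against 2.13 to 2.46%). They did in MABsallo-VEGF (0.940 to 1.81% against 1.77 to 2.42%), where 3d replicate 4 lay above 7d replicate 6. The lowest share of all 24 samples was that of MABsallo 3d replicate 1. Counts from the mitochondrial genome, rRNA included, were higher at 3d than at 7d in both cell-treated groups, except in MABsallo-VEGF 3d replicate 4, and overlapped between the days in saline. They took 12.7 to 20.04% of all counts in saline, 23.8 to 35.4% in MABsallo and 15.7 to 39.1% in MABsallo-VEGF at 3d, and 11.8 to 16.2% at 7d. With these counts left out of the total, the members' mean share was 2.01%, 1.88% and 1.88% at 3d and 2.71%, 2.60% and 2.38% at 7d.

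Each complex was lower at 3d in its mean share. In the order saline, MABsallo and MABsallo-VEGF, complex V took 0.586%, 0.476% and 0.481% at 3d and 0.819%, 0.796% and 0.726% at 7d. Complex IV took 0.442%, 0.318% and 0.344% at 3d and 0.632%, 0.595% and 0.520% at 7d. Complex I took 0.429%, 0.333% and 0.337% at 3d and 0.550%, 0.542% and 0.505% at 7d. The smaller sums followed the same order of days, with complex III at 0.185%, 0.155% and 0.164% at 3d and 0.240%, 0.261% and 0.232% at 7d. Complex II, the only complex without a mitochondrially encoded subunit, took 0.0461%, 0.0431% and 0.0353% at 3d and 0.0612%, 0.0586% and 0.0564% at 7d. The member with the highest mean normalized count over the 24 samples was Ndufa4 in complex I (7290.4; its protein is now counted with complex IV), Sdhb in complex II (3077), Uqcrh in complex III (9109), Cox6c in complex IV (21703) and Atp5mc3 in complex V (15959.9). These are normalized counts without a correction for length. At the other end, Atp5pb had at most 3 reads and Ndufa1 at most 5 reads in any sample, so their fold changes carry little information.

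**Figure D1:**
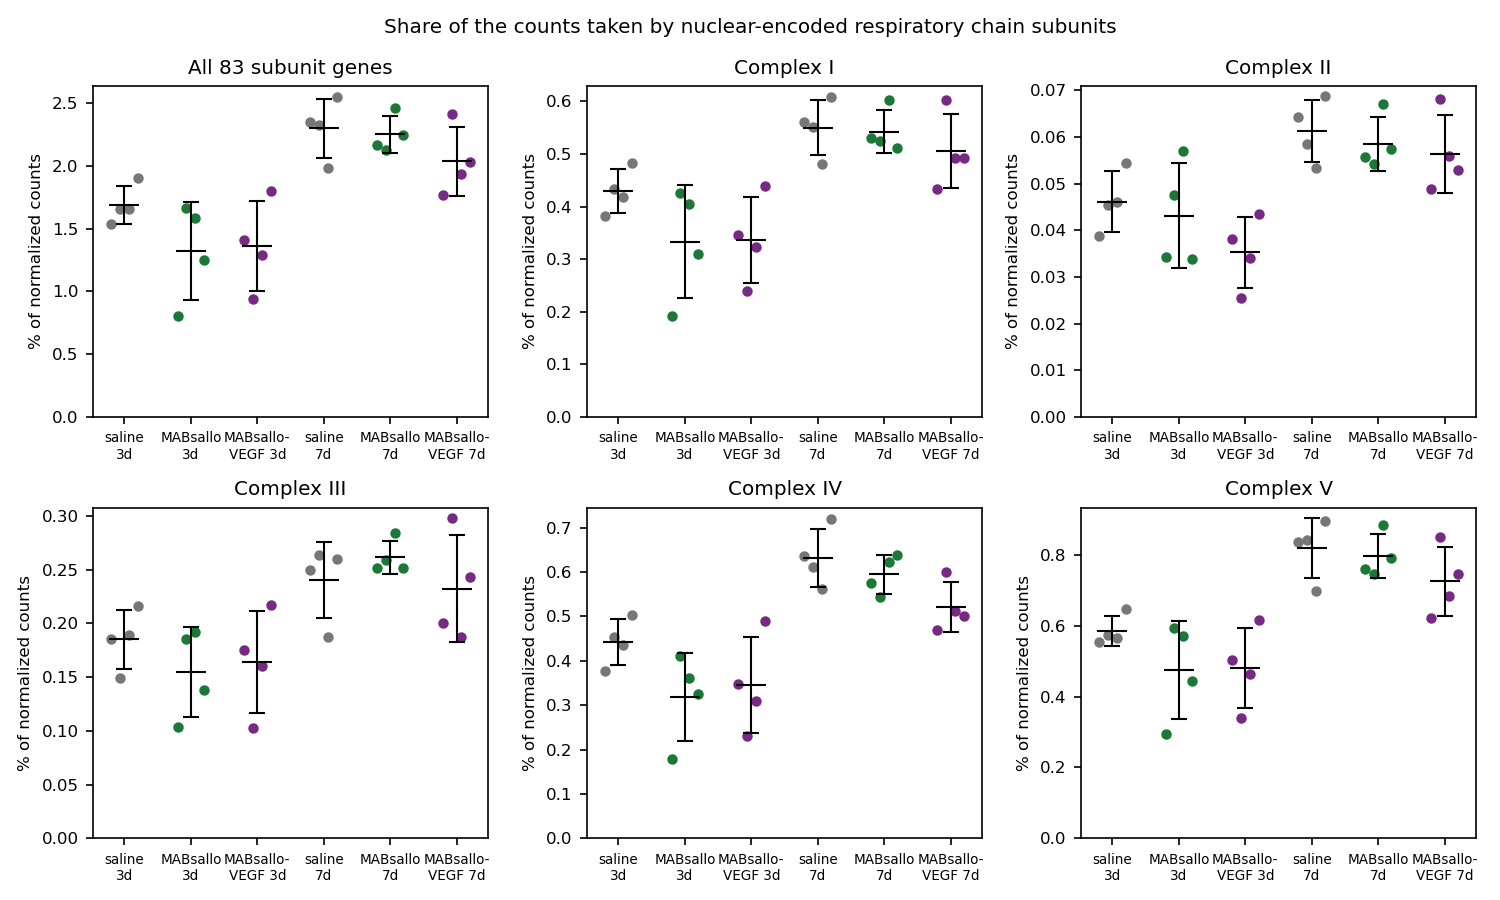
Summed normalized count of the members of each complex as a percent of all counts in a sample (y axis) for the 6 groups, with 1 point per sample and bars at the group mean ± SD (n = 4), and the sum over all 83 genes in the panel at upper left. In every complex the 3 group means at 3d lie below the 3 at 7d, and for complex V they lie between 0.476 and 0.586% at 3d and between 0.726 and 0.819% at 7d.

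The comparison of 3d with 7d within each treatment asked how these genes moved between the early and the later time after SVD. It was the comparison in which the members moved most. A gene was called at a limma adjusted p below 0.05, adjusted over all 16287 genes tested, and log2 fold changes are those of the normalized count plus 1. In MABsallo, 43 of the 80 members were lower at 3d and 1 was higher. Over all genes, 11.3% were called lower and 19.3% higher in the same comparison. In MABsallo-VEGF 14 members were lower and 0 higher (all genes 5.21% and 14.8%), and in saline 5 were lower and 0 higher (0.995% and 2.84%). The median log2 fold change of the 80 members was -0.39 in saline, -0.60 in MABsallo and -0.40 in MABsallo-VEGF, where the median of all genes was 0.05, 0.06 and 0.05. The count past a log2 fold change of -1 was 2 in saline (0.602% of all genes), 11 in MABsallo (6.05%) and 2 in MABsallo-VEGF (2.24%).

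The direction was shared more widely than the calls. The 3 time comparisons use different samples, and 65 of the 80 members (81.2%) had a negative log2 fold change in all 3, as did 4436 of the 16287 genes (27.2%). Every 3d sample lay below every 7d sample for 23 members in saline, 39 in MABsallo and 32 in MABsallo-VEGF. The same held for 4.92%, 9.33% and 8.01% of all genes. At least 2 treatments called 13 members lower (16.2%, against 3.68% of all genes): Uqcrfs1 of complex III, Ndufa12, Ndufb4, Ndufb9, Ndufs3 and Ndufv1 of complex I, Cox5a and Cox6c of complex IV, and Atp5f1a, Atp5mc1, Atp5mc3, Atp5pd and Atp5pf of complex V. Exactly 1 treatment called another 35. Of the 14 called in MABsallo-VEGF, 10 were also called in MABsallo, and of the 5 called in saline, 4 were. A gene called in one treatment and not in another is not thereby shown to differ, and the test of that difference is given below.

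**Figure D2:**
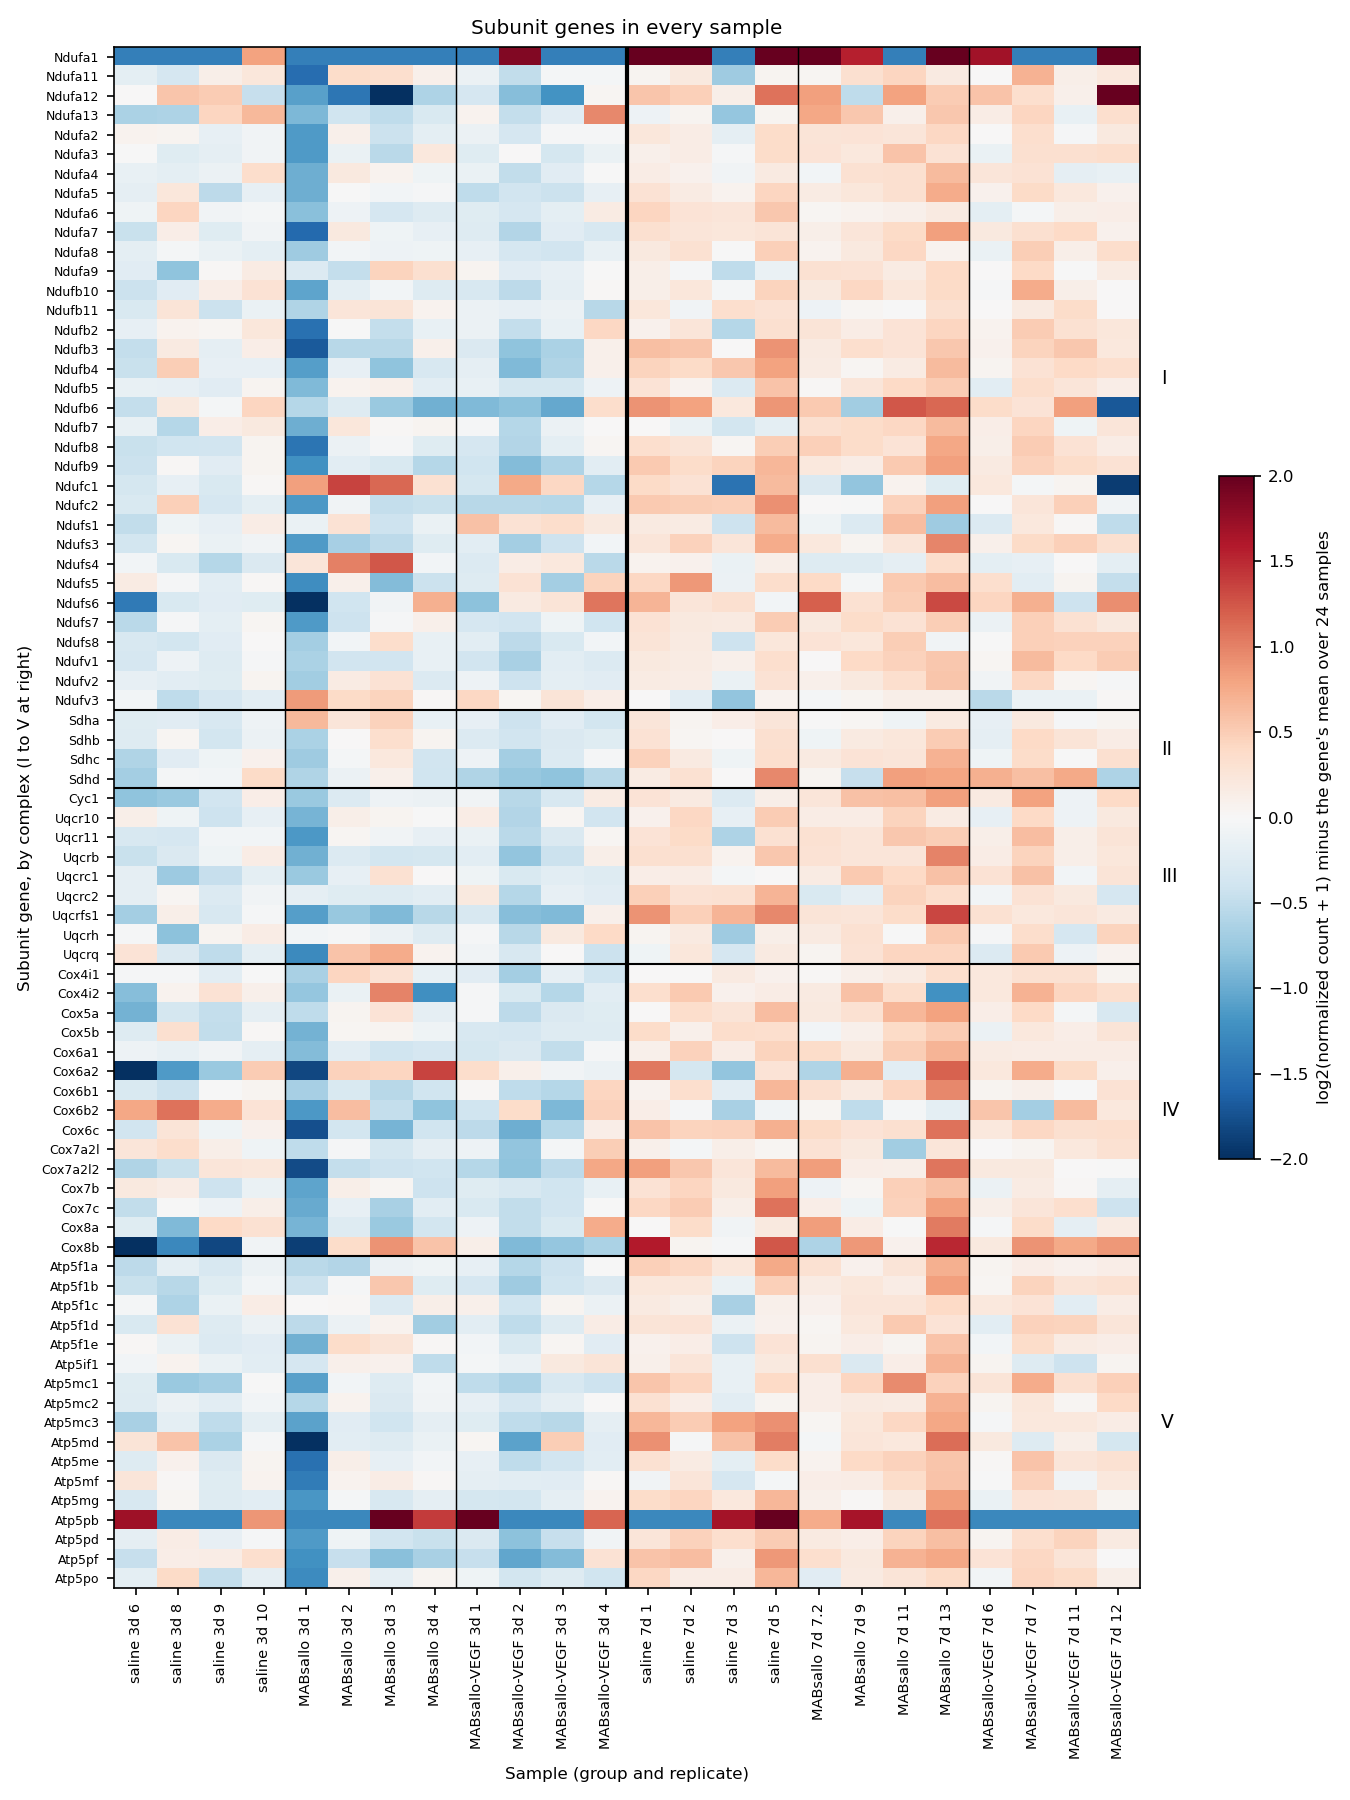
Heat map of 79 of the tested members (rows, grouped by complex) in the 24 samples (columns, grouped by treatment and time), coloured by the difference of each log2 normalized count from the member's mean over the samples. The 3d columns are mostly below the mean and the 7d columns mostly above it, and MABsallo 3d replicate 1 and MABsallo 7d replicate 13 are the columns with the lowest and the highest mean.

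These counts depended on single libraries. Without MABsallo 3d replicate 1, the library with the lowest mean of the members, 24 members were called in MABsallo, and without MABsallo 7d replicate 13, the highest, 27 were. Without both, an alternative chosen after seeing the data, 11 were lower and 1 higher, with a median of -0.30 (all genes 6.68% lower). In MABsallo-VEGF, leaving out 3d replicate 2 left 3 calls and leaving out 3d replicate 3, 7d replicate 7 or 7d replicate 11 left 4, while 7d replicate 12 left 7 and 7d replicate 6 left 9. In saline no member was called without 3d replicate 6 or without 7d replicate 5, 1 without 3d replicate 9, 2 without 7d replicate 3, 3 without 3d replicate 10 or 7d replicate 1, and 8 without 3d replicate 8. In the 22 samples 43 members were lower and 1 higher in MABsallo (all genes 11.8% lower), 19 were lower in MABsallo-VEGF (7.84%) and 0 were called in saline (0.0614%), where 16 had an unadjusted limma p below 0.05. In saline, edgeR called 0 higher and 5 lower, and DESeq2 0 higher and 13 lower, on all 24 samples. The share of all genes called is not given for these tools or for single libraries left out. The part of the lower depth at 3d in these values was not tested.

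**Figure D3:**
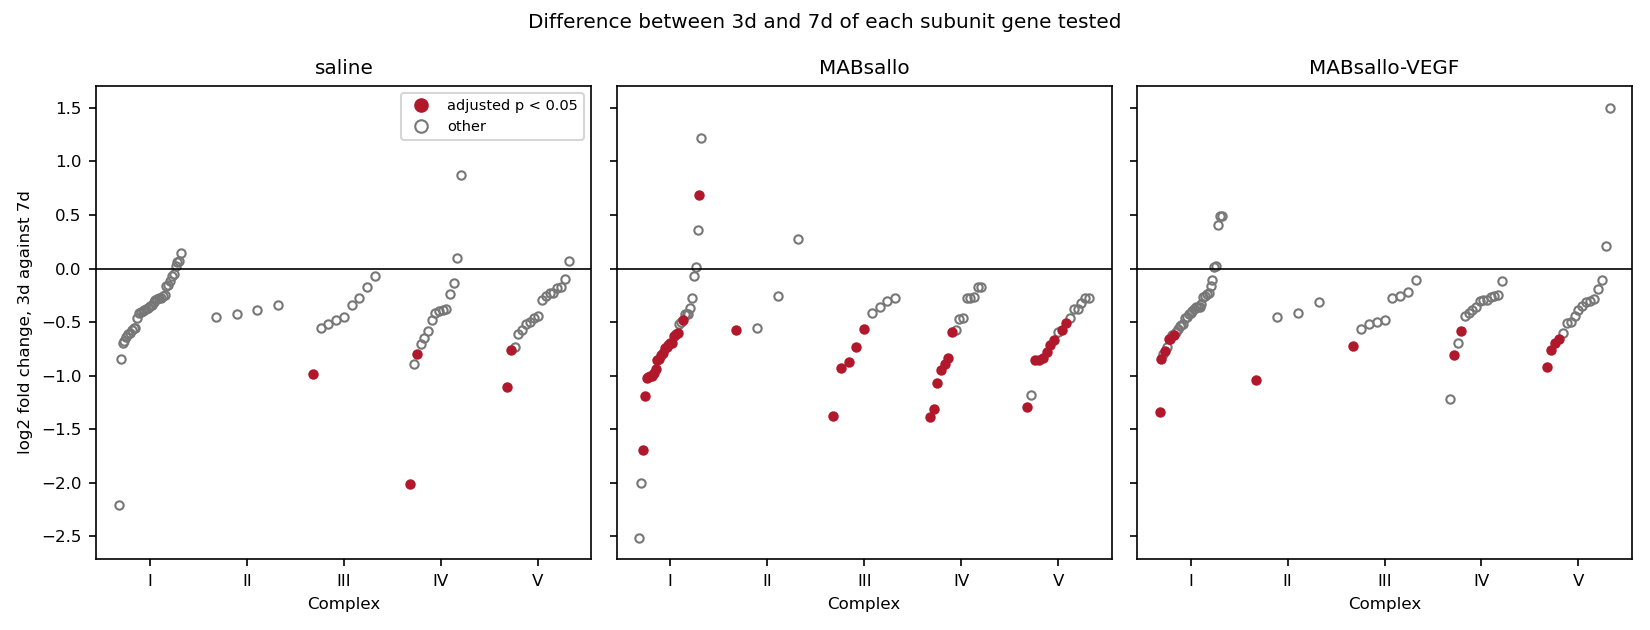
Log2 fold change of 3d against 7d (y axis) of each tested member, by complex (x axis) in a panel for each treatment, with 1 point per gene in order of its value and genes with a limma adjusted p below 0.05 filled. The median lies below 0 for every complex in every treatment, from -0.70 for complex I in MABsallo to -0.35 for complex I in saline.

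Complex III held the only member called lower at 3d in all 3 treatments, Uqcrfs1, which encodes the Rieske iron-sulfur protein that takes the first electron from ubiquinol. At 3d the normalized counts of Uqcrfs1 were 1825, 3167, 2323 and 2875 in saline, 1349, 1723, 1569 and 1991 in MABsallo and 2319.7, 1617, 1579 and 3108 in MABsallo-VEGF samples. At 7d they were 5425, 4062, 4679 and 5676 in saline, 3472, 3440.4, 3740 and 7383 in MABsallo and 3613, 3352, 3426 and 3288 in MABsallo-VEGF samples. The 4 samples at 3d lay below the 4 at 7d in each treatment, although the highest 3d and the lowest 7d sample of MABsallo-VEGF, 3108 and 3288, were close. The log2 fold change was -0.98, SE 0.24, adjusted p = 0.0272 in saline, -1.38, SE 0.24, adjusted p = 0.000315 in MABsallo and -0.72, SE 0.24, adjusted p = 0.0382 in MABsallo-VEGF by limma. In the 22 samples the saline value was -0.83, adjusted p = 0.101, so that call was lost without saline 3d replicate 6. Of 17 alternatives, 8 lost the saline call, and all 18 kept the MABsallo call. Alternatives of the MABsallo-VEGF call are not given. Over all genes, 51 of 16287 (0.313%) were called lower in all 3 treatments. In MABsallo 5 of the 9 members of complex III were called, with a median of -0.56. The others were Cyc1, the cytochrome c1 that passes the electron on (-0.87, adjusted p = 0.00621), the core protein Uqcrc1 (-0.56, adjusted p = 0.0298) and the small subunits Uqcrb (-0.93, adjusted p = 0.00211) and Uqcr11 (-0.73, adjusted p = 0.0224). Uqcrh, the most abundant of the complex by count, had -0.07 in saline, -0.36 in MABsallo and -0.10 in MABsallo-VEGF and was called in none of the 3.

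In complex I, 21 of 35 members were lower at 3d in MABsallo with a median of -0.70, 6 in MABsallo-VEGF (-0.41) and 0 in saline (-0.35), where 11 had an unadjusted limma p below 0.05. The 7 nuclear core subunits carry the flavin and the iron-sulfur clusters or form the quinone site. Of these, Ndufs3 (-1.01, adjusted p = 0.00122), Ndufs7 (-0.70, adjusted p = 0.0144) and Ndufv1 (-0.74, adjusted p = 0.00178) were among those lower in MABsallo. Ndufs3 (-0.66, adjusted p = 0.0324), Ndufs8 (-0.62, adjusted p = 0.0368) and Ndufv1 (-0.77, adjusted p = 0.00212) were lower in MABsallo-VEGF. Ndufv1 binds the flavin that accepts electrons from NADH. Normalized counts of Ndufv1 at 3d were 2087, 2458, 2205 and 2583 in saline, 1683, 2019, 2003 and 2365 in MABsallo and 2011, 1675, 2275 and 2177 in MABsallo-VEGF samples. The 7d values were 2997, 2932, 2803 and 3324 in saline, 2629.8, 3464, 3593 and 3814 in MABsallo and 2703, 4048, 3463 and 3717 in MABsallo-VEGF samples. Its 3d and 7d samples did not overlap in any treatment, and its log2 fold change in saline was -0.37, adjusted p = 0.217. Ndufs1, the largest of the core subunits, had -0.29, 0.02 and 0.49 in saline, MABsallo and MABsallo-VEGF and no call, and Ndufv2 had -0.26, -0.43 and -0.33, also without a call.

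Among the accessory subunits of complex I, 17 of 28 were lower at 3d in MABsallo, 3 in MABsallo-VEGF and 0 in saline. Ndufa12 had the largest called fall of any member in both cell-treated groups (-1.70, SE 0.43, adjusted p = 0.00459 in MABsallo, and -1.34, SE 0.43, adjusted p = 0.0294 in MABsallo-VEGF). For Ndufa12, the 3d normalized counts were 152, 223, 214 and 109 in saline, 71.0, 54.7, 36.9 and 97.6 in MABsallo and 119, 83.3, 65.6 and 156 in MABsallo-VEGF samples. In the 7d samples they were 223, 212, 164 and 321 in saline, 266, 106, 265 and 216 in MABsallo and 225, 191, 161 and 615 in MABsallo-VEGF samples. All 3d samples of both cell-treated groups were below the 7d samples of their own treatment, and the 7d value of 615 in MABsallo-VEGF replicate 12 stood far above the other 3. Without that sample the MABsallo-VEGF difference was -0.92 and no longer called. In saline the days overlapped (-0.41, SE 0.43, adjusted p = 0.663). The next largest called falls of the accessory subunits in MABsallo were those of Ndufb6 (-1.19, adjusted p = 0.0487), Ndufa13 (-1.02, adjusted p = 0.0142), Ndufb9 (-1.003, adjusted p = 0.00103) and Ndufb3 (-1.002, adjusted p = 0.00831), of which Ndufb9 was also lower in MABsallo-VEGF (-0.84, adjusted p = 0.00600). Ndufa4, with the highest count of the complex, had -0.50, adjusted p = 0.0876 in MABsallo.

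Ndufs4, an accessory subunit of the NADH-oxidising arm, was the only member called higher at 3d than at 7d, in MABsallo (0.69, SE 0.23, adjusted p = 0.0279). In the 3d samples, normalized counts of Ndufs4 were 2496, 2097, 1748 and 2129 in saline, 3060.2, 5252, 6139 and 2495 in MABsallo and 2141, 2867, 3007 and 1785 in MABsallo-VEGF samples. At 7d they were 2719, 2756, 2374 and 2805 in saline, 2168, 2185, 2304 and 3328 in MABsallo and 2282, 2319, 2625 and 2269.7 in MABsallo-VEGF samples. The MABsallo 3d replicates 2 and 3, at 5252 and 6139, were the highest of all 24 samples, and the 2495 of replicate 4 lay below the 3328 of MABsallo 7d replicate 13. The call was lost without any one of MABsallo 3d replicates 2 and 3 and MABsallo 7d replicates 7.2, 9 and 11, with log2 fold changes of 0.48 to 0.66, and also with edgeR (0.61). Ndufc1, another small accessory subunit, had every MABsallo 3d sample above every MABsallo 7d sample (1.22, adjusted p = 0.0526) and did not pass the test.

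Complex II, which also works in the tricarboxylic acid cycle, has only 4 genes here. Sdhc was lower at 3d in MABsallo (-0.58, SE 0.21, adjusted p = 0.0401) and Sdhd in MABsallo-VEGF (-1.04, SE 0.31, adjusted p = 0.0195). Both encode the membrane anchors of the complex. At 3d the normalized counts of Sdhd were 968, 1513, 1490.3 and 2027 in saline, 1022, 1433, 1671 and 1183 in MABsallo and 1027, 917, 888 and 1051 in MABsallo-VEGF samples. The 7d values were 1742, 1924, 1557 and 3006 in saline, 1614, 1123, 2751 and 2685 in MABsallo and 2539, 2342, 2638 and 1015 in MABsallo-VEGF samples. The 4 MABsallo-VEGF samples at 3d lay between 888 and 1051, and 7d replicate 12, at 1015, lay among them while the other 3 were at 2342 or above. This call was lost without any one of 3d replicates 2 and 3 or 7d replicates 6, 7 and 11, with log2 fold changes of -1.02 to -0.91. The flavoprotein Sdha had -0.39, 0.27 and -0.31 in saline, MABsallo and MABsallo-VEGF, and the iron-sulfur protein Sdhb had -0.34, -0.26 and -0.45. Neither was called in a time comparison.

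In complex IV, 7 of 15 tested members were lower at 3d in MABsallo with a median of -0.58, 2 in MABsallo-VEGF (-0.36) and 2 in saline (-0.41). Cox6c, a small subunit with the highest count of the complex, was lower in both cell-treated groups (-1.38, SE 0.28, adjusted p = 0.000800 in MABsallo, and -0.81, SE 0.28, adjusted p = 0.0417 in MABsallo-VEGF). Normalized counts of Cox6c at 3d were 15271, 23863, 18937 and 21192 in saline, 5936, 15504, 10552 and 15113 in MABsallo and 13853, 10126, 13425 and 21929 in MABsallo-VEGF samples. In the 7d samples they were 29772, 27113, 27533 and 32806 in saline, 26174, 24102, 25096 and 42692 in MABsallo and 23187, 26613, 24882 and 25212 in MABsallo-VEGF samples. Its 3d samples were below the 7d samples in each of the 3 treatments, and the saline difference of -0.58 did not pass the test (adjusted p = 0.258 by limma). Also lower in MABsallo were Cox7a2l2 (-1.31, adjusted p = 0.00461), Cox8a (-1.07, adjusted p = 0.00684), Cox6b1 (-0.95, adjusted p = 0.00280), Cox6a1 (-0.89, adjusted p = 0.000472), Cox7c (-0.84, adjusted p = 0.0134) and Cox5a (-0.59, adjusted p = 0.0376). Cox5a was lower in saline too (-0.80, adjusted p = 0.0369), and Cox4i1, the widely expressed form of subunit 4, was lower in MABsallo-VEGF (-0.59, adjusted p = 0.0284). Cox4i2, the other form of subunit 4, which is known from lung and low oxygen, had -0.37, -0.26 and -0.70 and was called in none. Cox7a2l, which takes part in joining complexes III and IV, had 0.10, -0.28 and -0.25.

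In complex V, 9 of 17 members were lower at 3d in MABsallo with a median of -0.59, 4 in MABsallo-VEGF (-0.39) and 2 in saline (-0.45). Subunit c, which forms the rotating ring, is encoded by 3 genes whose mature proteins are the same. Of these, Atp5mc3 was lower in saline (-1.10, SE 0.21, adjusted p = 0.0103) and in MABsallo (-0.84, SE 0.21, adjusted p = 0.00409), and it had -0.51, adjusted p = 0.0863 in MABsallo-VEGF. For Atp5mc3, the 3d normalized counts were 9648, 13197, 10607 and 13126 in saline, 7199.5, 12824, 11392 and 13301 in MABsallo and 12772, 10526, 10246 and 13238 in MABsallo-VEGF samples. At 7d they were 23869.6, 21382, 26156 and 28244 in saline, 15537, 17632, 20106 and 25743 in MABsallo and 14815, 17348, 17419 and 16707 in MABsallo-VEGF samples. The days did not overlap in any treatment. In the 22 samples the saline value was -1.02, adjusted p = 0.0522. Atp5mc1 was lower in MABsallo (-0.86, SE 0.23, adjusted p = 0.00784) and in MABsallo-VEGF (-0.92, SE 0.23, adjusted p = 0.00791). In the 3d samples, normalized counts of Atp5mc1 were 5589, 3955, 4117 and 6581 in saline, 3109.9, 6406, 5529.8 and 6363 in MABsallo and 4645, 4342, 5287 and 4982 in MABsallo-VEGF samples. The 7d values were 9765, 8936, 5985 and 8770 in saline, 7248, 8894, 12808 and 9138 in MABsallo and 7912, 11042, 8311 and 9262 in MABsallo-VEGF samples. The 3d and 7d samples of Atp5mc1 did not overlap in the cell-treated groups, and in saline the 6581 of 3d replicate 10 lay above the 5985 of 7d replicate 3. Atp5mc2 was lower in MABsallo by a smaller value (-0.51, adjusted p = 0.0351).

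Atp5pf, a subunit of the stalk that holds the catalytic head in place and the gene with the NRF-1 letters printed above, was lower at 3d in MABsallo (-1.29, SE 0.25, adjusted p = 0.000627) and in MABsallo-VEGF (-0.76, SE 0.25, adjusted p = 0.0345). At 3d the normalized counts of Atp5pf were 2455, 3704, 3749 and 4293 in saline, 1456, 2456, 1892 and 2154 in MABsallo and 2449, 1642, 1857 and 4123 in MABsallo-VEGF samples. In the 7d samples they were 5019, 5219.9, 3614 and 6201 in saline, 4290, 3868, 5456 and 5806 in MABsallo and 4088, 4513, 4028 and 3401 in MABsallo-VEGF samples. The MABsallo days did not overlap, whereas the 4123 of MABsallo-VEGF 3d replicate 4 lay within the 7d range, and without it and saline 3d replicate 6 the MABsallo-VEGF difference was -1.03, adjusted p = 0.00113. Of the catalytic head, the alpha subunit Atp5f1a was lower in saline (-0.76, adjusted p = 0.0211) and MABsallo (-0.67, adjusted p = 0.00608), and the beta subunit Atp5f1b in MABsallo-VEGF (-0.69, adjusted p = 0.0262). The gamma subunit Atp5f1c, the central shaft, had -0.10, -0.28 and -0.19 and was called in none, as was Atp5if1, the inhibitor of ATP hydrolysis by the enzyme (-0.18, -0.37 and 0.21).

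**Figure D4:**
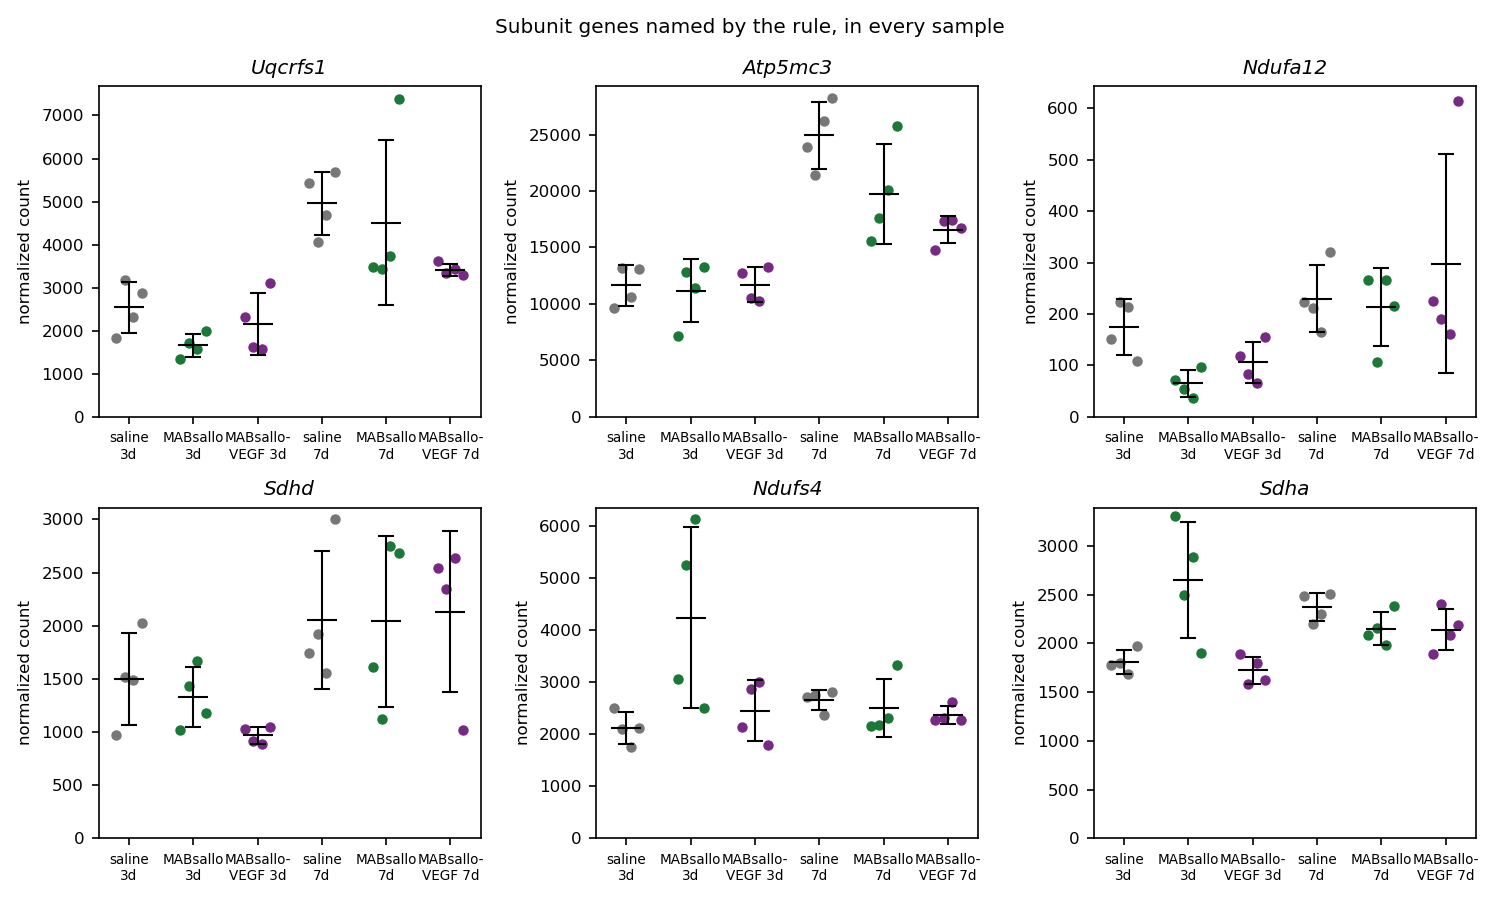
Normalized counts (y axis) of Uqcrfs1, Atp5mc3, Ndufa12, Sdhd, Ndufs4 and Sdha in the 6 groups, with 1 point per sample and lines at the group means. Uqcrfs1 and Atp5mc3 lie lower at 3d in every treatment, Sdhd lies between 888 and 1051 in MABsallo-VEGF at 3d, and Ndufs4 and Sdha reach their highest values, 6139 and 3309, in MABsallo at 3d.

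Of the pairs of complex IV isoforms, Cox8b had the largest log2 fold change of any member called in saline. Cox8b and Cox6a2 are the heart and skeletal muscle forms of subunits 8 and 6a, for which Cox8a and Cox6a1 are expressed in other tissues. Normalized counts of Cox8b at 3d were 458, 760.4, 525 and 1767 in saline, 504, 2402, 3453 and 2739 in MABsallo and 2001, 1000.1, 1089.7 and 1193 in MABsallo-VEGF samples. At 7d they were 5554, 1922, 1822 and 4399 in saline, 1205, 3401, 1975 and 5266 in MABsallo and 2129, 3440, 3122 and 3369.8 in MABsallo-VEGF samples. In saline the 3d samples were below the 7d samples, with 1767 and 1822 the nearest values (-2.01, SE 0.53, adjusted p = 0.0352). The 22 samples gave -1.77, adjusted p = 0.158. MABsallo-VEGF did not overlap either but did not pass the test (-1.22, adjusted p = 0.107), and the MABsallo days overlapped (-0.47, adjusted p = 0.535). For Cox6a2 the groups overlapped in all 3 treatments, with -0.89, -0.17 and -0.29. The promoter windows of Cox8b, printed above, and of Cox6a2 hold none of the 3 motifs searched, and that of Cox8a holds 2 of them.

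The share of Cox8b in the summed counts of Cox8a and Cox8b was 13.6, 28.9, 10.4 and 29.5% in saline at 3d and 61.5, 30.2, 35.7 and 52.7% at 7d. It was 38.5, 29.0, 28.1 and 17.2% in MABsallo-VEGF at 3d and 38.8, 43.6, 50.8 and 46.8% at 7d. The days did not overlap in these groups. The difference in means was -24.5 percentage points in saline and -16.8 in MABsallo-VEGF, and an exact permutation test of the group labels (two-sided) gave p = 0.0286 for either, the lowest value possible for 4 samples against 4. None of the 18 tests of a share passed the adjustment over all 18 (both adjusted p = 0.257). In the 22 samples the differences were -22.1 percentage points in saline and -13.1 in MABsallo-VEGF. The same permutation test gave p = 0.0571 for either, the lowest value possible for 4 samples against 3. In MABsallo the share was 21.8, 45.4, 62.6 and 50.6% at 3d and 16.4, 47.1, 36.7 and 42.7% at 7d, and the days overlapped. The share of Cox6a2 in Cox6a1 plus Cox6a2 was 26.1 ± 14.3% (SD, n = 4) in saline, 44.8 ± 17.3% in MABsallo and 40.7 ± 5.47% in MABsallo-VEGF at 3d, and 31.95 ± 13.3%, 33.2 ± 11.8% and 38.2 ± 4.59% at 7d. All groups of that share overlapped in part, with unadjusted exact permutation p of at least 0.114.

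The counts of both muscle isoforms were higher in samples with higher striated fibre genes, measured as the mean log2 normalized count of 15 such genes. Cox6a2 had r = 0.90 (permutation p = 5e-05, adjusted 6e-05) and rho = 0.92 (permutation p = 6e-05, adjusted 9e-05) over the 12 samples at 3d. Over the 12 at 7d it had r = 0.94 (permutation p = 3e-05, adjusted 4.5e-05) and rho = 0.92 (permutation p = 0.00011, adjusted 0.00013). Cox8b had r = 0.91 (permutation p = 2e-05, adjusted 4e-05) and rho = 0.94 (permutation p = 4e-05, adjusted 8e-05) at 3d. At 7d it had r = 0.83 (permutation p = 0.0012, adjusted 0.0012) and rho = 0.80 (permutation p = 0.0026, adjusted 0.0026). Over all 24 samples r was 0.92 and rho 0.95 for Cox6a2, and r was 0.83 and rho 0.82 for Cox8b, each with a permutation p of 1e-05 (adjusted 3e-05), the smallest that 100000 resamples can give. The adjustment covered these 6 relations. Without the 2 samples farthest from the median of the fibre genes, r for Cox6a2 was 0.79 at 3d, 0.89 at 7d and 0.87 over all samples, and r for Cox8b was 0.94, 0.72 and 0.83. The points share their libraries and normalization and pool all treatments. Both isoforms are themselves muscle genes, so the relation with fibre genes is not an independent test. The summed normalized count of the fibre genes was 62445 to 264084 in saline, 112324 to 471980.3 in MABsallo and 156607 to 260471 in MABsallo-VEGF at 3d, and 127265 to 375237, 118556 to 330958 and 192478 to 332699.9 at 7d. In whole tissue, fewer fibres and less RNA of a gene in each fibre cannot be told apart.

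**Figure D5:**
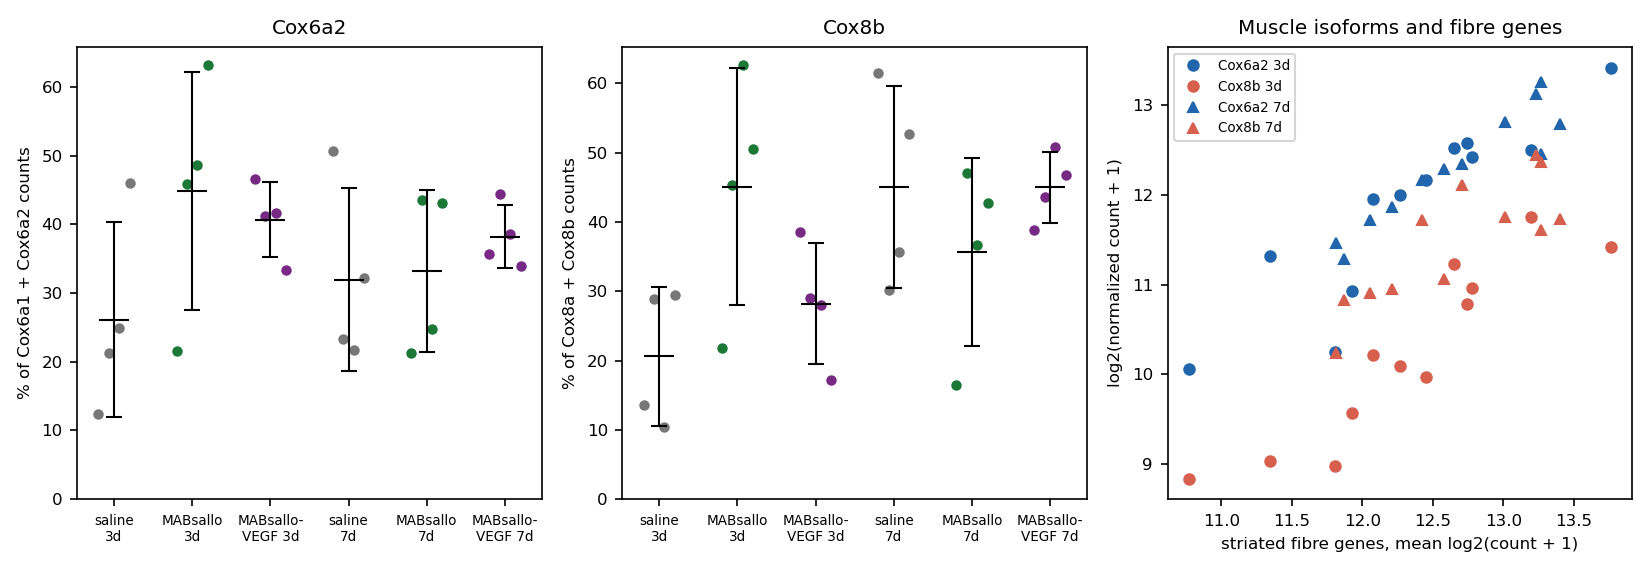
Shares of Cox6a2 in Cox6a1 plus Cox6a2 and of Cox8b in Cox8a plus Cox8b in percent by group, with 1 point per sample and bars at the mean ± SD (n = 4), and log2 normalized counts of both muscle isoforms against the mean log2 normalized count of 15 striated fibre genes. The Cox8b share is 20.6% in saline at 3d and 45.0% at 7d on average, and both isoforms are higher in samples with higher fibre genes (r = 0.92 and 0.83 over 24 samples).

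The other genes of the pathway did not all move with the subunits between 3d and 7d. Beside the counts here, 0.995% of all genes in saline, 11.3% in MABsallo and 5.21% in MABsallo-VEGF were called lower at 3d. The shares called higher were 2.84%, 19.3% and 14.8%. Of 12 genes of the tricarboxylic acid cycle, which feeds electrons to complexes I and II, 8 were lower at 3d in MABsallo (median -0.66), 6 in MABsallo-VEGF (-0.61) and 1 in saline (-0.47). The gene lower in all 3 was Dld, a shared subunit of the oxoacid dehydrogenases (-0.79, adjusted p = 0.0215 in saline, -0.90, adjusted p = 0.000925 in MABsallo and -0.56, adjusted p = 0.0356 in MABsallo-VEGF). Of 46 assembly factors, 8 were lower and 1 higher in MABsallo (-0.09), 1 lower and 1 higher in MABsallo-VEGF (-0.10), and 2 lower and 0 higher in saline (-0.27). Mitochondrial ribosomal protein genes, which make the mitochondrially encoded subunits, had 25 of 73 lower and 6 higher in MABsallo (-0.44), 7 lower and 2 higher in MABsallo-VEGF (-0.31) and 0 called in saline (-0.23), where 12 had an unadjusted limma p below 0.05. For cytosolic ribosomal protein genes the counts were 9 lower and 2 higher of 79 in MABsallo (-0.18), 2 lower and 1 higher in MABsallo-VEGF (-0.11) and 0 called in saline (0.16), with 7 at an unadjusted p below 0.05.

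The subunits encoded in the mitochondrial genome were not called lower with the nuclear ones. Their SEs, with 4 samples in every group, ran from 0.31 for Mt-nd5 to 0.72 for Mt-nd6, against 0.24 for Uqcrfs1. A fall the size of the members' medians could thus go uncalled. Of these 13 subunits, 3 were higher and 0 lower at 3d in MABsallo (median 0.06, 19.3% of all genes higher) and in MABsallo-VEGF (-0.19, 14.8%), and 0 were called in saline (-0.10), where 1 had an unadjusted limma p below 0.05. The 3 were the same in both cell-treated groups: Mt-nd6 (5.10 and 4.62), Mt-atp8 (2.73 and 2.89) and Mt-nd4l (2.45 and 2.15). Mt-nd6 lies on the other strand from the rest, and the Mt-atp8 and Mt-nd4l reading frames share transcripts with their neighbours Mt-atp6 and Mt-nd4. Mt-co1, a catalytic subunit of complex IV, had 0.57, adjusted p = 0.375 in MABsallo. Of 14 regulators of mitochondrial biogenesis, 4 were higher and 1 lower at 3d in MABsallo, 3 higher in MABsallo-VEGF and 2 higher in saline. Yy1 (2.34, 4.12 and 3.98 in saline, MABsallo and MABsallo-VEGF) and the coactivator Ppargc1b (2.20, 3.24 and 3.28) were higher in all 3. Nrf1, whose protein binds the NRF-1 motif, had 0.12, -0.00 and -0.24 and was not called, and Tfam, the packaging factor of mitochondrial DNA, had -0.55, -0.28 and -0.12, also without a call.

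Markers of several cell types also differed between the days, where 0.995% of all genes in saline, 11.3% in MABsallo and 5.21% in MABsallo-VEGF were called lower at 3d. Of 8 smooth muscle genes, 2 were lower at 3d in saline (median -1.16), 3 in MABsallo (-0.99) and 2 in MABsallo-VEGF (-0.93). Their summed normalized count was 25478 to 181866, 85848 to 148058 and 61125 to 124953 at 3d and 162815 to 303644, 201068 to 212122 and 119748 to 280635 at 7d, in the order saline, MABsallo and MABsallo-VEGF. Of 8 adipocyte genes, 2 were lower in saline (-4.19), 8 in MABsallo (-4.67) and 0 in MABsallo-VEGF (-0.70), with sums of 3822 to 29550.1, 2570.2 to 5263 and 2823 to 9319 at 3d and 15102 to 67996, 11308 to 102813 and 6585 to 12975 at 7d. Adipoq was at 0 in 3 of the 24 samples, and Ucp1, the defining brown adipocyte gene, in 22. No striated fibre gene of 15 was called in saline (-0.75), MABsallo (0.20) or MABsallo-VEGF (-0.49), with 2, 2 and 0 at an unadjusted limma p below 0.05. In MABsallo, 1 of 11 epithelial genes was lower and 1 higher, 3 of 8 macrophage and 5 of 6 mast cell genes were lower, and none of 7 erythroid and 2 brown adipocyte genes was called. In MABsallo-VEGF 1 erythroid gene and in saline 1 epithelial gene was lower, and no other gene of these lists was called. The part of these cell types in the subunit values was not tested.

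The injected cells were compared with saline at each time to ask whether the treatment moved these genes. At 3d in MABsallo, 3 members were higher and 4 lower than in saline, with a median log2 fold change of -0.17 over the 80 members and 0.07 over all genes. Over all genes, 10.7% were called higher and 4.48% lower, and the shares of the 80 members were 3.75% and 5%. Past a log2 fold change of -1 lay 2 members (2.86% of all genes). The higher members were Ndufs4, Ndufv3 and Sdha and the lower ones Ndufa12, Cox6b2, Atp5pf and Cox6c. In the 22 samples 3 were higher and 6 lower (15.8% and 6.82% of all genes), where Uqcrfs1 (-0.75, adjusted p = 0.0238), Ndufb4 (-0.65, adjusted p = 0.0495) and Ndufa6 (-0.49, adjusted p = 0.0484) joined the lower ones and Cox6b2 (-1.15, adjusted p = 0.0545) left them. By edgeR 1 was higher and 2 lower, and by DESeq2 5 and 4. With libraries scaled to the same total 0 were higher and 15 lower (median -0.45), and with only the groups compared in the fit limma called 0, with 9 at an unadjusted p below 0.05. For these alternatives and for edgeR and DESeq2 the share of all genes called is not given. Scaling to the same total also lowered the median of all genes, as given below. No member was called without saline 3d replicate 8 or without MABsallo 3d replicate 3, 1 without saline 3d replicate 9, and 2 without MABsallo 3d replicate 1, where the median was 0.06.

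Ndufs4 had the largest rise of the members called in MABsallo at 3d (0.91, SE 0.23, adjusted p = 0.0153), with the sample values given above. The lowest MABsallo sample, 2495, lay just below the highest saline sample, 2496. Ndufv3, a small flavoprotein-arm subunit, rose by 0.70 (SE 0.20, limma adjusted p = 0.0232). At 3d its normalized counts were 875, 635, 715 and 778 in saline, 1626, 1182, 1228 and 922 in MABsallo and 1200.4, 925, 1079.6 and 993 in MABsallo-VEGF samples. The MABsallo samples lay above all saline samples. Sdha, the catalytic flavoprotein of succinate dehydrogenase, rose by 0.52 (SE 0.16, limma adjusted p = 0.0281). At 3d its normalized counts were 1784, 1799, 1687 and 1974 in saline, 3309, 2495, 2889.5 and 1904 in MABsallo and 1887, 1584, 1796 and 1625 in MABsallo-VEGF samples. MABsallo replicates 1 to 3 lay above every saline sample, and replicate 4, at 1904, within the saline range. The other subunits of complex II were not called (0.12 for Sdhb, -0.03 for Sdhc and -0.15 for Sdhd). With libraries scaled to the same total, which shifts the median of all genes by -0.19, these rises were 0.64 for Ndufs4, 0.43 for Ndufv3 and 0.25 for Sdha, and none was called. Sdha and Ndufv3 were also not called by edgeR (0.41 and 0.59) or without MABsallo 3d replicate 1 (0.40 and 0.56).

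Of the called falls in MABsallo at 3d, Ndufa12 was the largest (-1.44, SE 0.43, adjusted p = 0.0281), and the 4 MABsallo samples, 36.9 to 97.6, lay below the saline samples, 109 to 223. Its call was lost without any one of saline 3d replicates 8 and 9 or MABsallo 3d replicates 1, 2 and 3, with log2 fold changes of -1.51 to -1.20. Cox6b2, a testis form of subunit 6b with few counts here, fell by 1.17 (SE 0.39, limma adjusted p = 0.0450). Its call was lost in 11 of 18 alternatives. At 3d its normalized counts were 244, 302, 239 and 172 in saline, 63.9, 219, 102 and 81.4 in MABsallo and 108, 183, 75.7 and 196 in MABsallo-VEGF samples, with MABsallo replicate 2 among the saline samples. The widely expressed Cox6b1 had -0.30, adjusted p = 0.364. Cox6c fell by 0.83 (adjusted p = 0.0450) and Atp5pf by 0.83 (adjusted p = 0.0295), and for both the highest MABsallo sample lay above the lowest saline sample. In the 22 samples, without the lowest saline sample (2455), Atp5pf had -0.999, adjusted p = 0.00222. Of 18 alternatives, 7 lost its call, and its log2 fold changes ran from -1.11 to -0.69. The muscle isoforms Cox8b (1.29, adjusted p = 0.0984) and Cox6a2 (0.95, adjusted p = 0.232) had positive values that did not pass the test, beside 3 of 15 striated fibre genes higher (median 1.30, and 0.92 with 0 called in the 22 samples). Over all genes, 4.48% were called lower and 10.7% higher in this comparison. Of the other lists, 5 of 8 macrophage, 5 of 6 mast cell, 1 of 8 adipocyte, 5 of 73 mitochondrial and 6 of 79 cytosolic ribosomal protein genes were lower, and 1 tricarboxylic acid cycle gene, 1 assembly factor, 1 epithelial gene, 3 mitochondrially encoded subunits, 4 regulators and 2 cytosolic ribosomal protein genes were higher. The part of these in the subunit values was not tested.

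At 3d in MABsallo-VEGF against saline no member was called by limma (median -0.10, 0.04 over all genes), where 0.0307% of all genes were called higher and 0% lower. An unadjusted p below 0.05 was seen for 3 members by limma, 2 by edgeR and 2 by DESeq2, and neither of the latter tools called a member. The 3 were Ndufv3 (0.49, 95% interval 0.07 to 0.90), Atp5pf (-0.56, -1.08 to -0.05) and Cox6b2 (-0.84, -1.64 to -0.03). Without MABsallo-VEGF 3d replicate 4 and saline 3d replicate 6, Atp5pf was called lower (-0.999, SE 0.23, adjusted p = 0.00497), and 3.51% of all genes were. The samples left out held its highest MABsallo-VEGF value, 4123, and its lowest saline value, 2455, so this call rests on leaving them out. Without MABsallo-VEGF 3d replicate 4 alone 1 member was called. MABsallo-VEGF against MABsallo at 3d compared cells with and without the VEGF vector, which also encodes truncated CD34, so VEGF alone is not isolated. No member was called by limma, edgeR or DESeq2, with 2, 3 and 5 at an unadjusted p below 0.05 (median 0.06, 0% of all genes higher and 0.00614% lower). Sdha had the smallest unadjusted p of the members, with -0.59 and an interval of -0.92 to -0.27 (limma adjusted p = 0.311), and all 4 MABsallo-VEGF samples lay below all 4 MABsallo samples. Ndufs4 followed with -0.73 and an interval of -1.21 to -0.24. The comparisons of MABsallo and MABsallo-VEGF with saline share their saline samples.

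At 7d no member was called between treatments, and 0% of all genes were called in either direction in each of the 3 comparisons. In MABsallo against saline 3 members had an unadjusted limma p below 0.05 (2 by edgeR, 3 by DESeq2) and the median was 0.10. These were Ndufb7 (0.60, 0.14 to 1.06), Ndufa13 (0.68, 0.05 to 1.31) and Cyc1 (0.49, 0.01 to 0.97). In MABsallo-VEGF against saline 5 had an unadjusted limma p below 0.05 (2 by edgeR, 6 by DESeq2) with a median of -0.04, and all 5 were lower in MABsallo-VEGF. Atp5mc3 had -0.58 (-1.01 to -0.15), with its MABsallo-VEGF samples at 14815 to 17419 and its saline samples at 21382 to 28244. Uqcrfs1 had -0.53 (-1.03 to -0.02), also without overlap. The others were Ndufa6 (-0.37), Uqcrc2 (-0.41) and Atp5f1a (-0.37). In MABsallo-VEGF against MABsallo 1 member, Cox5a, had an unadjusted limma p below 0.05 (-0.46, -0.90 to -0.02), 1 did by edgeR and 2 by DESeq2, with a median of -0.14. About 1 in 20 genes has an unadjusted p below 0.05 by chance alone. Here and elsewhere, counts at that cut-off come without the share of all genes and are not read as a shift of the members.

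Whether the effect of the cells differed between 3d and 7d was tested as an interaction. For MABsallo against saline no member was called by limma, edgeR or DESeq2 (8, 11 and 11 at an unadjusted p below 0.05, median -0.23, 0% of all genes in either direction). The smallest unadjusted p were those of Ndufs4 (1.03, 0.35 to 1.71), Sdha (0.66, 0.21 to 1.12) and Ndufa13 (-1.17, -2.06 to -0.27). In the 22 samples Ndufa13 was called (-1.37, SE 0.38, adjusted p = 0.0466), as were 0.639% of all genes in that direction. Without MABsallo 3d replicate 1 and MABsallo 7d replicate 13 the median was 0.06. For MABsallo-VEGF against saline no member was called by the 3 tools (1, 1 and 2 at an unadjusted p below 0.05, median -0.06, 0% of all genes). The member with the unadjusted limma p below 0.05 was Cox6b2 (-1.17, -2.31 to -0.03). These interactions are also the tests of whether the 3d to 7d difference of a member differed between treatments.

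The 2 recovered MABsallo-VEGF samples at 7d held no member called against the other 2 by limma, edgeR or DESeq2, with 0 members at an unadjusted p below 0.05 by each (median 0.03, 0% of all genes in either direction). Ndufc1 had the smallest unadjusted p, with 1.01 and an interval of -0.33 to 2.35. Its normalized counts were 152 and 128 in the recovered samples and 137 and 34.7 in the other samples. Sdhd had 0.58 (-0.32 to 1.47), with 2539 and 2342 in the recovered samples and 2638 and 1015 in the other samples, so that replicate 12 alone was low. With 2 samples on a side, the intervals leave room for differences of either sign.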

How the data were processed

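Per the labels and the study's methods, the authors sequenced the 3′ ends of urethral RNA (QuantSeq, single-end), trimmed reads with fastq-mcf, aligned them with HISAT2 to the rat assembly Rnor6.0, kept only reads with a single alignment, made gene counts with HT-seq Count and normalized these with DESeq2. Discarding multi-mapped reads can lower genes with near-identical copies or pseudogenes, which many subunit genes have. The authors deposited 1 table of signal values for 32883 genes in 24 samples, each a count divided by the size factor of its sample. Whole reads were recovered for 100% of values within a tolerance of 0.001. All 24 columns were mapped to samples by name, and groups came from the labels. No pair of replicates agreed within sampling noise.

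Differences were tested with limma 3.58.1 (R 4.3.3) on log2(normalized count + 1), with a trend in the prior variance, in 1 fit of the 6 groups (7 for the recovered samples), on 16287 genes with a mean of at least 2, two-sided, with Benjamini-Hochberg adjustment over all of them. Intervals are 95% intervals from the same fit. Log2 fold changes understate changes of low genes because of the added 1. Alternatives were edgeR 4.0.16 (quasi-likelihood) and DESeq2 1.42.0 on the recovered reads, another pseudocount (5), no filter or a mean of at least 10, quantile normalization, equal totals, only the groups compared, 22 samples, and each replicate left out. Isoform shares were compared by exact permutation tests (SciPy 1.17.1). The fit was tested on simulated data. The named genes were the most abundant member of each complex, paralogs, Sdha to Sdhd, the 7 nuclear core subunits of complex I, and the 3 largest rises and falls among called members of each comparison. Other genes named in the text were chosen after their values were seen. Cox7a2 is not analysed here, and the values of 1 member are not reported here. The members and lists were chosen with earlier results of these data known. Lists covered assembly factors, mitochondrially encoded subunits, regulators, the tricarboxylic acid cycle, ribosomal proteins and 8 cell types.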

Additional observations from a re-analysis of the deposited data

Results flagged for a closer look

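In groups of 4 samples, 14 of 198 sets of values had 1 sample far from the other 3 by Dixon's test at the 95% level, over 30 genes and 3 shares, and chance alone gives about 1 in 20. MABsallo 7d replicate 13, the library with the highest mean log2 count of the members, was the high sample in 6 of the 14. There Uqcrfs1 had a normalized count of 7383 against 3440.4 to 3740.0 in the other 3 samples, Cox6c 42692 against 24102 to 26174, and Atp5mc2 17638 against 11953 to 12328. In the same library Ndufs3 had 2038 against 1083 to 1226, Ndufs4 3328 against 2168 to 2304, and Sdhc 4221 against 2967 to 3152. Single genes set apart the remaining samples. In MABsallo-VEGF at 7d, Ndufa12 had 615 in replicate 12 against 161 to 225, Ndufs4 had 2625 in replicate 11 against 2269.7 to 2319, and Ndufs8 had 1077 in replicate 6 against 1485 to 1506. Ndufs7 had 1483 in MABsallo-VEGF 3d replicate 3 against 1202 to 1249, and Cox7a2l had 3658 in MABsallo 7d replicate 11 against 6758 to 7223. In saline, Cox4i1 had 4346 in 3d replicate 9 against 4899.8 to 5001, Ndufa4 had 9055 in 3d replicate 10 against 6224 to 6594, and Ndufs8 had 814 in 7d replicate 3 against 1225 to 1292.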

How the results depend on the processing

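No named call turned its direction under any alternative run. The counts and medians below moved, and the cause was not tested, except that fits on fewer samples have less information. Shares of all genes called are not given beside the counts below. With equal totals, which moved the median of all genes to -0.19 and -0.18 in MABsallo and MABsallo-VEGF against saline at 3d, 15 members, all lower, were called in MABsallo vs saline at 3d (median -0.45) and 26 in MABsallo-VEGF 3d vs 7d, and the median of MABsallo-VEGF vs saline at 3d was -0.34. With quantile normalization 8 were called in MABsallo-VEGF 3d vs 7d. DESeq2 called 13 in saline 3d vs 7d and 23 in MABsallo-VEGF 3d vs 7d, and edgeR called 3 in MABsallo vs saline at 3d. With only the groups compared in the fit, 0 were called in MABsallo vs saline at 3d, 0 in saline 3d vs 7d and 23 in MABsallo 3d vs 7d. In 22 samples 1 was called in MABsallo-VEGF vs saline at 3d, 0 in saline 3d vs 7d and 1 in the MABsallo interaction. Without MABsallo 3d replicate 1 and MABsallo 7d replicate 13, chosen after seeing the data, 12 were called in MABsallo 3d vs 7d (median -0.30) and 3 in MABsallo vs saline at 3d, all higher (median 0.061, also without MABsallo 3d replicate 1 alone, against -0.17), and the median of the MABsallo interaction was 0.056 against -0.23. Medians of comparisons without a called member also changed sign in some alternatives. Leaving out 1 replicate gave 24 to 46 calls in MABsallo 3d vs 7d, 3 to 20 in MABsallo-VEGF 3d vs 7d, 0 to 8 in saline 3d vs 7d, 0 to 7 in MABsallo vs saline at 3d (medians -0.27 to 0.061) and 0 to 1 in MABsallo-VEGF vs saline at 3d. Of counts, medians and shares, 568 alternative values stayed close to the reported ones and 40 moved. Of the values of named calls, 201 kept the call and 81 lost it with the same direction. Among the named calls, those kept in every alternative run for them were Cox6c, Ndufa12 and Uqcrfs1 in MABsallo 3d vs 7d and Atp5mc1 in MABsallo-VEGF 3d vs 7d.

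Among the groups compared, MABsallo and MABsallo-VEGF at 3d share all 4 replicate numbers and no other groups share more than 1. Deviations of same-numbered samples correlated at 0.22, 0.15, 0.073 and 0.25 for replicates 1 to 4, and replicate 3 correlated best with number 2, so the number was not taken as a pairing. A fit with the replicate block called 0 members, with 3 at an unadjusted limma p below 0.05 and a median of 0.05. Depth limits Atp5pb, Ndufa1 and Ndufs6, with at most 3, 5 and 25 reads in a sample.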

Other observations

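Second rows of the count table carried the symbols Uqcrb, Cox6b1 and Ndufv3 with mean normalized counts of 1871, 1486 and 10.6 over the 24 samples. They were not added to the members, for which the row with the higher mean was used.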
